A study of Mus musculus with 7 samples.

Results

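The 10 genes described here are 5 receptors of natural killer (NK) and T cells (Klrk1, Klrc1, Klrd1, Ncr1 and Klrb1c) and 5 ligands (Raet1d, Raet1e, Ulbp1, H60b and Clec2d). They were chosen by symbol from the 32285 genes of the deposited feature lists, and all 10 were found there. Their transcripts were counted in 7 droplet single-cell RNA sequencing libraries of whole brain tumours that grew from NSCG-mCherry, a mouse glioma line that carries EGFRvIII and lacks Arf/Ink4a, in C57BL/6 mice labelled WT and 7 to 10 weeks old. Every library pooled the tumours of at least 2 mice, taken at about day 14, so a library is 1 replicate and the spread between mice is not known. The tumours of all groups share the 1 implanted line, whose EGFRvIII and mCherry transcripts are not among the counted genes, so that tumour cells were recognised by cluster markers alone.

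The untreated group (UT) had 1 library. The isotype control group (IgG) had 2 libraries from mice given IgG2b at 10 mg/kg, and the labels also give an oral diluent for the IgG controls of the BPI treatment without saying which library had it. The BP group had 2 libraries from mice treated with anti-VEGF (B20, 5 mg/kg) plus anti-PD-L1 (10 mg/kg), injected every 3 days from day 6 to 7 after implantation. The BPI group had 1 library from mice that also received, by mouth every day, 10 mg/kg of IPI-145, which blocks the delta and gamma forms of PI3K. The CD40 group had 1 library from mice that had 2 doses of 100 µg of anti-CD40 agonist antibody, and the labels leave it unclear whether a dendritic cell vaccine was added.

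NK cells kill by weighing signals from activating and inhibitory receptors. Klrk1 encodes NKG2D, an activating receptor that signals through the adaptor Hcst (DAP10) and, in mice, Tyrobp (DAP12), and that binds stress-induced relatives of MHC class I. Raet1d and Raet1e (RAE-1 proteins), Ulbp1 (MULT-1) and H60b are such ligands, and tumour cells often carry them. Klrc1 encodes NKG2A, which pairs with the product of Klrd1 (CD94) to form an inhibitory receptor for the non-classical class I molecule Qa-1. Ncr1 encodes the activating receptor NKp46. Klrb1c encodes NK1.1, the classical NK marker of C57BL/6 mice, and Clec2d encodes Clr-b, the ligand of the inhibitory receptor Klrb1b.

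The annotation used (GENCODE vM21, build GRCm38, the build that the submitters' processing notes name as mm10) puts 5 members in the NK gene complex of chromosome 6: Klrb1c at chr6:128778485-128789215, Clec2d at chr6:129180615-129186534, Klrd1 at chr6:129591782-129598775, Klrk1 at chr6:129610323-129623864 and Klrc1 at chr6:129666015-129678973. Ncr1 lies at chr7:4337724-4345164 and Ulbp1 at chr10:7440362-7473638. H60b (chr10:22158586-22288849) and Raet1d (chr10:22360552-22374139) both lie within the span of Raet1e (chr10:22158569-22374139). Raet1d shared 25.19% of its exon bases with Raet1e, and 87.66% of the 31-base words in the last 500 bases of its transcripts also occurred in Raet1e transcripts, so that the split of 3′ reads between these genes is uncertain. H60b shared 10.96% of its exon bases with Raet1e but none of those words. A gene on the opposite strand there, Gm26740, had 15844 UMIs in the kept cells.

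RefSeq start-site windows (250 bases before to 50 after the start, build GRCm38.p6) were at hand for 8 of the 10 members. The windows of Raet1d (chr10:22361644-22361943, plus strand) and of 1 of the 2 Raet1e starts (chr10:22173247-22173546, plus strand) are shown because they illustrate how nearly alike these neighbouring copies are: 295 of 302 aligned columns (97.7%) were identical, and capitals mark the bases that differ or lie outside the overlap.
Raet1d: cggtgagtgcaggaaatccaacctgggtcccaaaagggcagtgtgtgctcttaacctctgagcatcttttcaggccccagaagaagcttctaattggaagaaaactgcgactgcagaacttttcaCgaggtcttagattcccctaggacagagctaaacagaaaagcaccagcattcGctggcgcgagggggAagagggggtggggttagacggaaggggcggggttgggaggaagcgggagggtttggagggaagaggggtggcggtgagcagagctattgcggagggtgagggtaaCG
Raet1e: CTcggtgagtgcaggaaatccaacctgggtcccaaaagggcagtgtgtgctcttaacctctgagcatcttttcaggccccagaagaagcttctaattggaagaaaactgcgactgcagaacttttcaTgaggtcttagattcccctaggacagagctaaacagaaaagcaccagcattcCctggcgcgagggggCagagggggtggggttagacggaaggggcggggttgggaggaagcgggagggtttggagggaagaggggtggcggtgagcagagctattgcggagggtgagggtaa
The other Raet1e start (chr10:22158319-22158618) was 43.8% identical to the Raet1d window.

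The windows of Klrk1 and Clec2d are shown because both genes were counted in lymphoid as well as myeloid cells, as described further on. In the Klrk1 window (chr6:129623815-129624114, minus strand) capitals mark 1 match to TGANTCA, the core of AP-1 sites, and 1 to TGTGGT, a core of RUNX sites.
Klrk1: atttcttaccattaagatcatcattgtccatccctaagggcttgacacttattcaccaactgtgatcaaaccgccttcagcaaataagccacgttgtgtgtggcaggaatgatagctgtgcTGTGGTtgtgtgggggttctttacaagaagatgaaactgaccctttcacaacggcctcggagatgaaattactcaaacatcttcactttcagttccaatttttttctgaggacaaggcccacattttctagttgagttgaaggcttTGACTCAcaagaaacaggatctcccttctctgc
In the Clec2d window (chr6:129180365-129180664, plus strand) capitals mark 1 match to the core of interferon-stimulated response elements, which is GAAA, 2 bases of any kind and GAAA.
Clec2d: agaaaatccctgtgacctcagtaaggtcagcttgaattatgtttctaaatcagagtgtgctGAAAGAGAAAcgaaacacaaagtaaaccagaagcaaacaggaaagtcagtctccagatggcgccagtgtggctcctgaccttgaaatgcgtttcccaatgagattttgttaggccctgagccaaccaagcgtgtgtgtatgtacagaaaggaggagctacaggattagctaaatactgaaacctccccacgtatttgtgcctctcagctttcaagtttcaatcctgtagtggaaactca
Both strands were searched, and no 2 marked matches overlap. Over 32851 RefSeq windows of the same length, 7.81% held TGANTCA, 16.8% held TGTGGT and 3.44% held the interferon-stimulated core. The last motif was in no other member's window, while TGTGGT was also matched 2 times in each Ncr1 window and 1 time each in those of Klrc1, Klrb1c and Ulbp1. A match describes letters in the window and no more.

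After removal of probable doublets 5373 to 9650 cells per library were kept, from libraries of 68997476 to 186793886 UMIs in total. Pairs of libraries shared at most 26 cell barcodes, and never more than 0.384% of those in the smaller library. Clusters were named from marker lists that contain none of the 10 genes, and the 10 genes were also kept out of the clustering. The named classes used below held 1108 NK-like, 2262 T-like, 3601 monocyte/macrophage-like, 2330 microglia-like, 451 endothelial-like and 31918 tumour-like cells, and 5590 cells stayed unnamed. All 12 NK markers were detected in the NK-like cells of every library. Of 12 tumour markers only 1 to 5 per library stood above the named non-tumour cells, Egfr in all 7. UT stood apart in that its barcodes come from another barcode list than those of the other libraries. By consecutive library names, IgG replicate 1, BP replicate 2 and BPI form 1 set (set A) and IgG replicate 2 and CD40 another (set B), while BP replicate 1 and UT stand alone. Set and treatment are therefore partly confounded, and values within a set are given beside the pooled ones.

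Levels are given as CPM, with the total UMIs of the class in a library as the base, and intervals are exact 95% Poisson intervals that cover counting error only. Levels of one gene are compared between classes and libraries, not between genes. Tests used edgeR's quasi-likelihood test on counts summed per library and class, with Benjamini-Hochberg adjustment over all genes of the class. They were run for T-like, monocyte/macrophage-like, microglia-like and tumour-like cells in 5 comparisons each. A lone UT, BPI or CD40 library is assumed in them to vary like the IgG and BP libraries. Fits that leave out a library or add a library set term have nearly as many coefficients as libraries. Little spread between libraries is then left for their p-values to rest on. Log2 differences are treated minus control with their standard error.

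NK-like cells were few in the IgG libraries. They made up 2.14% of the UT cells (115 cells), 0.707% and 0.2002% of the IgG cells (42 and 15 cells, replicates 1 and 2), 4.84% and 1.71% of the BP cells (467 and 98), 4.99% of the BPI cells (331) and 0.515% of the CD40 cells (40). Both BP libraries and BPI lay above both IgG libraries in this share, as did UT.

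All 5 receptors were detected in the NK-like cells of every library. Klrk1 stood at 1149 CPM in UT, 669 and 642 in IgG, 480.4 and 809.5 in BP, 662 in BPI and 656 in CD40. UT was highest and BP replicate 1 lowest, and the IgG libraries lay between the BP libraries. Up to 51.9% of the NK-like UMIs of IgG replicate 1 could be free RNA. With that upper bound subtracted in each library, Klrk1 was at 1194 CPM in IgG replicate 1, above UT (1168) and both BP libraries (486 and 929). The class was made of different sub-clusters in these libraries: 3 sub-clusters held 35.8%, 25.9% and 29.1% of the NK-like cells of BP replicate 1 and each at most 17.5% of those of any other library. Another sub-cluster held 38.1% to 57.5% of the NK-like cells of IgG, BP replicate 2, BPI and CD40, but 8.70% of those of UT and 1.07% of those of BP replicate 1. Differences of BP replicate 1 and UT from the others in this class therefore cannot be told apart from the sub-clusters. Of these cells 66.2% to 97.4% had a Klrk1 UMI.

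Ncr1, the receptor most restricted to this class with 88.7% of all its UMIs in NK-like cells, was at 996 CPM in UT, 791 and 837 in IgG, 468 and 836 in BP, 750.1 in BPI and 958 in CD40. BP replicate 1 was again the lowest library. With the upper bound of free RNA subtracted, Ncr1 in IgG replicate 1 was at 1412 CPM, above UT (1014) and every other library. Klrd1 was at 996 CPM in UT, 631 and 1187 in IgG, 552 and 689 in BP, 655 in BPI and 912 in CD40, so that its IgG libraries lay apart by more than the BP libraries did. With the bound subtracted this order turned, at 1127 and 1238 CPM in IgG and 558 and 790 in BP.

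Klrc1 in NK-like cells was at 272 CPM in UT, 188 and 77.8 in IgG, 135 and 98.4 in BP, 97.1 in BPI and 99.0 in CD40. The value of IgG replicate 2 rests on 4 UMIs. Klrb1c was at 374 CPM in UT, 132 and 136 in IgG, 198 and 206 in BP, 141 in BPI and 151 in CD40. Both BP libraries lay above both IgG libraries for Klrb1c, 1 of 7 members tested, as they did for 18.2% of all genes tested in this class, and its IgG values rest on 14 and 7 UMIs. No member had both below, as 16.1% of all genes did. With the upper bound of free RNA subtracted, Klrb1c was at 235 and 142 CPM in IgG and 201 and 236 in BP. BP replicate 1 then lay below IgG replicate 1. Klrc1 in IgG replicate 1 was then at 336 CPM, above UT (277).

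IgG replicate 2 had fewer than the 20 NK-like cells required for a test, so the group comparison was run only with the lower minimum of 10 cells. There edgeR called 0 of 7 members tested in each of the 5 comparisons, beside 0.234% of all genes for BP, 0.0195% for BPI, 0% for CD40 and 0.589% for UT, each set against IgG, and 0.176% for BPI against BP. The unadjusted p was under 0.05 for 268, 149, 262, 490 and 125 genes in the same order. Klrb1c differed by 0.59 ± 0.45 (log2, standard error) between BP and IgG (edgeR adjusted p = 0.983) and by 1.55 ± 0.51 between UT and IgG (adjusted p = 0.219). Klrk1 differed by 0.01 ± 0.44 between BP and IgG (edgeR adjusted p = 1.0). Of the ligands in these cells, Raet1e was at 41.8 CPM in UT, 18.8 and 58.4 in IgG (2 and 3 UMIs), 25.5 and 58.1 in BP, 104 in BPI and 57.3 in CD40. BPI was the highest library, and up to 100% of the value in IgG replicate 1 could be free RNA. BPI differed from BP by 1.75 ± 0.56 (unadjusted p = 0.0031, edgeR adjusted p = 0.661) and from IgG by 1.83 ± 0.77 (unadjusted p = 0.023, edgeR adjusted p = 1.0), and neither passed. Clec2d differed by -1.29 ± 0.54 between UT and IgG, which did not pass (edgeR adjusted p = 0.455).

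In single NK-like cells Klrk1 and Ncr1 UMIs were found together in 657 of 1108 cells (59.3%). Klrd1 was present in 84.9% of the NK-like cells with a Klrc1 UMI and in 80.1% of those without, so that most NK-like cells had the CD94 transcript whether or not that of its NKG2A partner was seen.

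**Figure D1:**
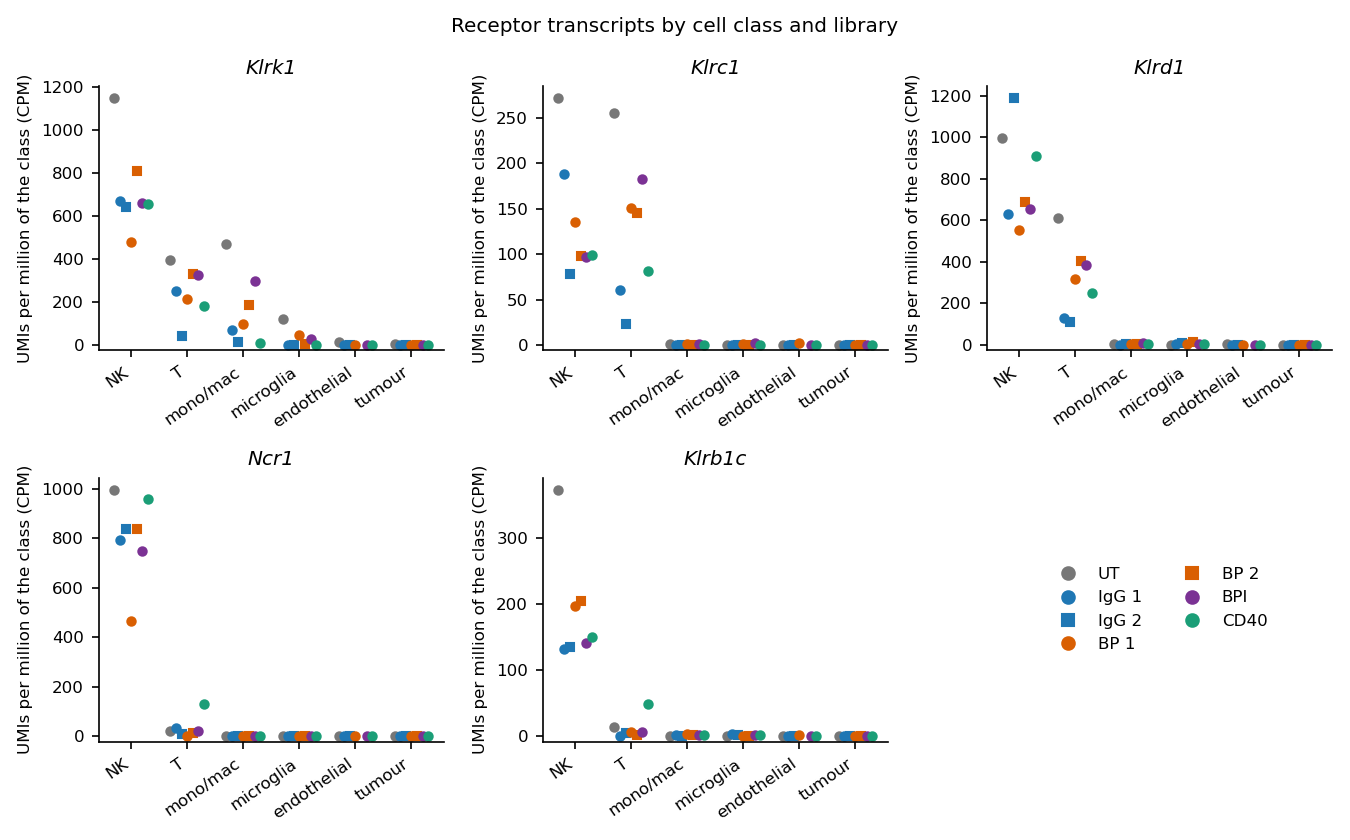
CPM (vertical axes) of the 5 receptors in 6 cell classes (horizontal axes); each point is 1 library with at least 10 cells of the class, coloured by group, circles and squares being replicates 1 and 2 where a group has 2. Ncr1 and Klrb1c are highest in NK-like cells, Klrc1 and Klrd1 in NK-like and T-like cells, and Klrk1 also in the monocyte/macrophage-like cells of some libraries.

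Pooled over the libraries, T-like cells held 74.6% of the Klrc1 UMIs and 57.5% of the Klrd1 UMIs, and they were the largest source of both in UT, BP, BPI and CD40. In IgG replicate 1 NK-like cells held more, 71.4% of Klrc1 against 25.0% in T-like cells and 69.8% of Klrd1 against 15.6%. In IgG replicate 2 Klrd1 was 39.6% in NK-like, 37.7% in microglia-like and 15.6% in T-like cells, while 55.6% of its 9 Klrc1 UMIs were in T-like and 44.4% in NK-like cells. Klrd1 stood at 611 CPM in UT, 130.3 and 110.0 in IgG, 319 and 405 in BP, 383 in BPI and 249 in CD40. Every other library lay above both IgG libraries. Klrc1 followed the same order of groups, at 255 CPM in UT, 60.8 and 22.9 in IgG, 151 and 145 in BP, 183 in BPI and 81.8 in CD40. The IgG values rest on 15 and 24 Klrd1 UMIs and on 7 and 5 Klrc1 UMIs, in 36 and 57 cells.

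Against IgG, the UT library had more Klrc1 in T-like cells by 2.68 ± 0.56 (log2, edgeR adjusted p = 0.0179) and more Klrd1 by 2.29 ± 0.50 (adjusted p = 0.0264). They were 2 of 9 members tested, beside 0.945% of all genes in this comparison, or 0.526% in the upward direction. Both directions were kept but the calls ended without IgG replicate 2 (edgeR adjusted p = 0.288 for Klrc1 and 0.276 for Klrd1) and that of Klrd1 ended without IgG replicate 1 (0.0733). With the estimated free RNA subtracted the differences were nearly as large, 2.57 ± 0.92 for Klrc1 and 2.23 ± 0.92 for Klrd1, but with the larger standard errors no gene of the class was called (edgeR adjusted p = 0.787 for both). UT is 1 library with its own barcode list, so the group and the library cannot be told apart.

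The T-like cells of these libraries lay in different clusters. The cluster led by Gm2682, Cd3d and Trbc2 held 97.2% and 96.5% of them in IgG, 90.7% in BP replicate 2, 96.0% in BPI and 79.1% in CD40. It held only 32.9% in UT and 29.0% in BP replicate 1, where the cluster led by Ccl1, Trbc2 and Cd3g held 63.0% and 70.8%. Within the first cluster Klrd1 was at 222 CPM in UT, 80.6 and 116 in IgG, 193 and 385 in BP, 388 in BPI and 145 in CD40. Klrc1 there was at 53.3 CPM in UT, 62.7 and 4.85 in IgG, 58.5 and 139 in BP, 181 in BPI and 63.7 in CD40. For Klrd1 every other library still lay above both IgG libraries, whereas for Klrc1 UT and BP replicate 1 lay between them. In the second cluster UT stood at 702 CPM of Klrd1 and BP replicate 1 at 344. With only the first cluster in the test, which was added after the data were seen, UT differed from IgG by 1.08 ± 0.66 for Klrd1 (edgeR adjusted p = 0.913) and 0.90 ± 0.89 for Klrc1 (0.967), so that both calls ended. The calls for UT are thus a difference between libraries whose T-like cells lie mostly in different clusters.

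BP and BPI did not pass the test for these genes. The BP difference from IgG was 1.46 ± 0.43 for Klrd1 (edgeR adjusted p = 0.232) and 1.81 ± 0.51 for Klrc1 (adjusted p = 0.197). The BPI difference was 1.74 ± 0.49 for Klrd1 (edgeR adjusted p = 0.229) and 2.33 ± 0.56 for Klrc1 (adjusted p = 0.113). No member was called in either comparison, beside 0.121% of all genes for BP (0.0881% upward) and 0.209% for BPI (0.187% upward). Both BP libraries lay above both IgG libraries for Klrd1, Klrc1 and Ulbp1, 3 of 9 members, while 26.4% of all genes tested did so. Both lay below for Raet1e, as did 10.8% of all genes. BPI against BP and CD40 against IgG had 0 members and 0% of all genes called in T-like cells by edgeR, with 185 and 284 genes at an unadjusted p under 0.05, and DESeq2 called 0 genes in both.

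Within set A, Klrd1 in T-like cells was 3.11-fold higher in BP replicate 2 than in IgG replicate 1 (counting interval 1.85 to 5.63) and Klrc1 2.39-fold (1.12 to 6.08). For BPI the folds over IgG replicate 1 were 2.94 for Klrd1 and 3.01 for Klrc1, with lower bounds of 1.77 and 1.44. Within set B, CD40 exceeded IgG replicate 2 by 2.27-fold for Klrd1 (1.48 to 3.62) and 3.57-fold for Klrc1 (1.45 to 11.4). The same direction was thus present within both sets, each time from 1 library per arm. The set A folds are smaller with the upper bound of free RNA subtracted, 1.56 for Klrd1 and 1.19 for Klrc1 in BP replicate 2 and 1.41 and 1.45 in BPI, while those of CD40 were 2.27 and 3.57 as before. The part of free RNA within that bound was not tested. The calls also rested on which libraries entered the fit. Without BP replicate 1, edgeR called Klrd1 in BP (log2 1.78, adjusted p = 0.0136), among 65 genes in all, and both genes in BPI (0.00931 for Klrd1 and 0.00218 for Klrc1), among 122. Without BP replicate 2 it called both in BPI (0.00724 and 0.00198), among 127 genes, where 11 genes in BP and 19 in BPI were called with all libraries. A library set term was also tried, which separated set A from the other 4 libraries and so put BP replicate 1 and UT together with set B. With it edgeR called Klrc1 in BP (log2 1.82, adjusted p = 0.0277), among 125 genes.

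Klrk1 in T-like cells was at 394 CPM in UT, 252 and 41.3 in IgG, 213 and 330.0 in BP, 325 in BPI and 180.3 in CD40. The IgG libraries differed from each other by more than any treated library did from IgG replicate 1. The log2 difference from IgG was 0.92 ± 0.54 in BP (edgeR adjusted p = 0.804), 1.37 ± 0.62 in BPI (0.745) and 1.51 ± 0.63 in UT (0.301). Within set A, Klrk1 was 1.31-fold (counting interval 0.888 to 2.00) in BP replicate 2 and 1.29-fold (0.887 to 1.94) in BPI over IgG replicate 1. Within set B it was 4.37-fold (2.24 to 9.75) in CD40 over IgG replicate 2, whose level rests on 9 UMIs. With the upper bound of free RNA subtracted, the set A folds turned to 0.655 in BP replicate 2 and 0.619 in BPI. That of CD40 was 4.37 as before.

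Ncr1 was low in cells of the T-like class, at 21.5 CPM in UT, 34.7 and 9.17 in IgG, 1.90 and 12.8 in BP, 21.4 in BPI and 129 in CD40. Nearly all of it in CD40 and UT was in 1 sub-cluster of 49 cells, split from the NK cluster and led by Xcl1, Ncr1 and Cd7. The marker rule put it in the T-like class with 9 of 10 T markers raised, but 9 of 12 NK markers were raised as well and its leading genes include 1 marker of each list, so its name is uncertain and its Ncr1 is not read as a level of T cells. The sub-cluster had 24 cells in CD40, 10 in UT, 9 in BPI and 1 or 2 elsewhere, and held 99 of the 101 Ncr1 UMIs of the class in CD40 and 37 of the 39 in UT. Without it Ncr1 was at 1.15 to 11.5 CPM in the 7 libraries and at 3.05 in CD40. With it CD40 differed from IgG by 2.67 ± 0.85, which did not pass (edgeR adjusted p = 1.0). It passed without BP replicate 1 (0.0222), without BP replicate 2 (0.0378) and with the term for set A against the other libraries (0.000162), among 34, 35 and 33 genes in all. Klrb1c was likewise low, from 0 to 14.3 CPM in 6 libraries and 48.6 in CD40 (3.89 ± 1.27 against IgG, edgeR adjusted p = 1.0). Without the sub-cluster Klrb1c in CD40 was at 6.10 CPM. T-like cells with a Cd8a or Cd8b1 UMI and no Cd4 UMI had 3 Ncr1 UMIs in BP replicate 1, 1 in BPI and none in the others.

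Cells with a Cd8a or Cd8b1 UMI carried more Klrc1 and Klrd1 transcript than those with a Cd4 UMI in BP replicate 1, where both were numerous (502 and 286 cells). There Klrd1 was at 489 CPM in the first and 78.2 in the second, Klrc1 at 248 and 22.5, and Klrk1 at 316 and 63.9. In BPI, with 348 and 30 cells, Klrd1 was at 445 and 51.9 CPM. UT was unlike these libraries. Its 109 cells with a Cd4 UMI had Klrc1 at 272 CPM and Klrk1 at 379.5. These were near the 272 and 449 CPM of its 54 cells with a Cd8a or Cd8b1 UMI. Klrd1 was at 583 CPM in the cells with a Cd4 UMI and higher, at 785, in those with a Cd8a or Cd8b1 UMI. In IgG these subsets held only 5 to 13 cells per library, and no level there is read.

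Across all T-like cells Klrd1 was found in 84.6% of the 900 cells with a Klrc1 UMI and in 36.4% of those without. The same order held in each of the 7 libraries, for example 94.2% against 40.4% in UT and 89.4% against 32.0% in BP replicate 1, although the IgG libraries had only 4 and 2 cells with Klrc1. Klrc1 and Klrd1 UMIs thus tended to be in the same T-like cells, a tendency that depth per cell also gives and whose part was not tested.

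Markers of NK cells were also read in T-like cells: 7 to 12 of 12 were detected, with a summed level of 491.7 CPM in UT, 529.9 and 302.6 in IgG, 600.7 and 509.2 in BP, 635.5 in BPI and 666.2 in CD40, against 7481 to 11636 in NK-like cells. The sum was lowest in IgG replicate 2, and that in UT was below that in IgG replicate 1. Without the sub-cluster led by Xcl1, Ncr1 and Cd7, Klrc1 and Klrd1 were still called in UT against IgG (edgeR adjusted p = 0.0195 and 0.0128). Their levels without it were 80.6 and 112 CPM of Klrd1 in IgG and 159 in CD40, and 62.7 and 4.66 CPM of Klrc1 in IgG, the last from 1 UMI. Free RNA accounted for at most 0.311% of the Klrd1 and 0.243% of the Klrc1 level in any library's T-like cells. Among all UMIs of T-like cells, however, the upper bound of free RNA was 68.3% in IgG replicate 1 against 0.510% to 7.08% in the other libraries, and in NK-like cells 51.9% against 1.26% to 13.8%. Such RNA is part of the total that the CPM is taken over. With that bound subtracted, IgG replicate 1 had Klrd1 at 279 and Klrc1 at 130 CPM in T-like cells, above the 257 and 84.4 CPM of CD40 but below UT, BP and BPI. Klrk1 there was at 540 CPM, above every other library (42.6 to 395).

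**Figure D2:**
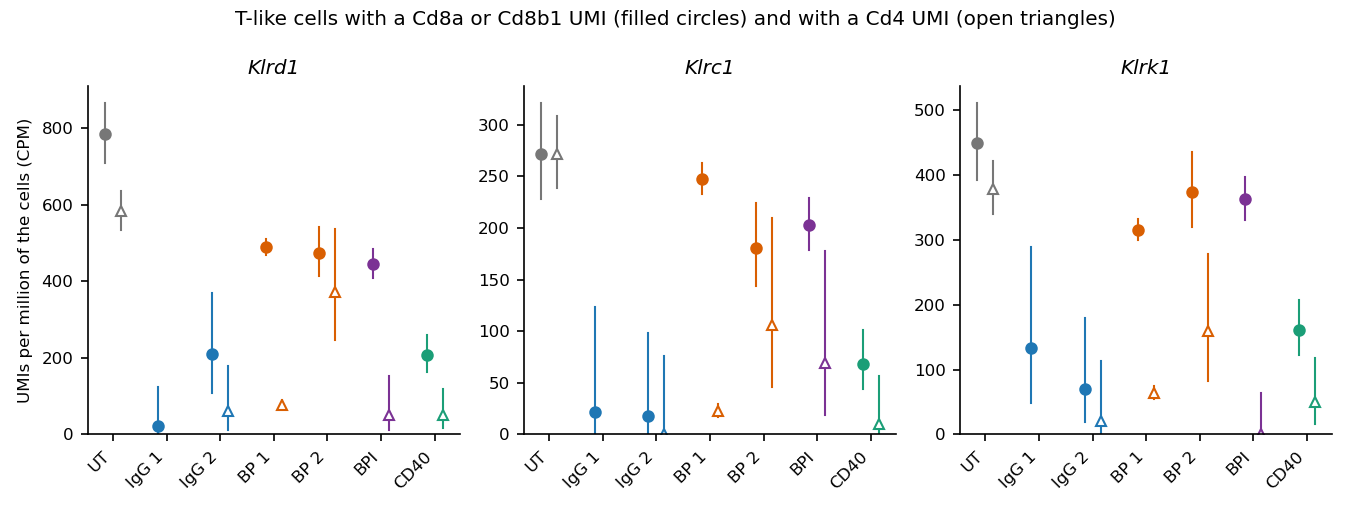
CPM (vertical axes) of Klrd1, Klrc1 and Klrk1 by library (horizontal axes) in T-like cells with a Cd8a or Cd8b1 UMI and no Cd4 UMI (filled circles) and the reverse (open triangles); bars are exact 95% Poisson intervals and subsets under 10 cells are left out. In BP replicate 1 and BPI the filled circles lie far above the triangles, whereas in UT they lie close together for Klrc1 and Klrk1.

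Pooled over the libraries, monocyte/macrophage-like cells held 6135 of the 13503 Klrk1 UMIs (45.4%), against 25.9% in T-like and 20.1% in NK-like cells. They were the largest source in UT (64.4%), BP replicate 2 (40.5%) and BPI (46.5%), whereas NK-like cells were in both IgG libraries (48.6% and 50.0%) and T-like cells in BP replicate 1 (33.6% against 31.6%) and CD40 (45.3% against 8.04%). Their level was 468 CPM in UT (452 to 485), 69.2 (49.6 to 93.8) and 11.9 (6.78 to 19.3) in IgG, 95.2 (90.7 to 99.9) and 184 (164 to 206) in BP, 299.6 (281 to 319) in BPI and 8.61 (5.57 to 12.7) in CD40. UT and BPI were high, CD40 and IgG replicate 2 low, and both BP libraries lay above both IgG libraries. In UT the level was above that of the library's own T-like cells (394 CPM), while it was below it in the other 6 libraries.

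The other receptors were near 0 in these cells. Ncr1 reached at most 0.902 CPM, Klrc1 at most 1.36, Klrb1c at most 4.06 and Klrd1 at most 6.84 CPM in any library. In the cells that had a Klrk1 UMI, Ncr1 was at most 0.878 CPM and the 12 NK markers summed to 8.29 to 72.2 CPM, against 7481 CPM or more in NK-like cells. Klrd1 was higher in the cells with a Klrk1 UMI than in those without in 7 of 7 libraries (3.51 to 24.1 against 0 to 4.41 CPM), and the NK markers in 5 of 7 (5.45 to 40.1 CPM without). The part of NK cell RNA in the Klrk1 level was not tested beyond these values. The same cells carried Lyz2, a myeloid lysozyme, at 4018 to 7593 CPM, below the 6102 to 13180 CPM of monocyte/macrophage-like cells with no Klrk1 UMI in the same 7 libraries. Hcst, the DAP10 adaptor, was at 33.2 to 48.2 CPM and Tyrobp at 1620 to 2711 CPM in the cells with a Klrk1 UMI. Hcst was lower there than in the cells without one in 7 of 7 libraries (48.0 to 66.2 CPM without). The T cell markers were higher with a Klrk1 UMI in 2 of 7 libraries, UT (39.8 against 17.6 CPM) and BPI (34.1 against 8.81), and the part of T cell RNA was not tested. Free RNA gave at most 0.690% of the Klrk1 level of the class.

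The share of monocyte/macrophage-like cells with a Klrk1 UMI was 87.4% in UT, 26.9% and 20.3% in IgG, 43.5% and 55.8% in BP, 66.0% in BPI and 7.98% in CD40. Median depth differed from 4612 UMIs per cell in BPI to 16698 in CD40. With every cell thinned to 1000 UMIs the shares were 39.7% in UT, 16.7% and 1.56% in IgG, 9.12% and 20.6% in BP, 27.0% in BPI and 0% in CD40. The deepest libraries thus had the lowest shares both before and after thinning, and BP replicate 1 fell below IgG replicate 1 once depth was equal. Endothelial-like cells, which should lack the gene, had a Klrk1 UMI in 0 of 8 to 101 cells in 5 libraries, in 5.63% of 71 cells in UT and in 0.488% of 205 in CD40, at median depths of 2630 to 16866 UMIs.

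No comparison passed for Klrk1 in this class. The log2 difference from IgG was 1.98 ± 0.78 in BP (edgeR unadjusted p = 0.0344, adjusted p = 0.597), 3.45 ± 0.88 in BPI (adjusted p = 0.202), 3.93 ± 0.89 in UT (0.155) and -2.14 ± 1.06 in CD40 (1.0). BPI differed from BP by 1.47 ± 0.84 (edgeR adjusted p = 1.0). No gene at all was called for BP, BPI or CD40 against IgG or for BPI against BP (0%), with 898, 1225, 108 and 227 genes at an unadjusted p under 0.05, and 0.0161% of genes (0.00803% upward) were called for UT against IgG. DESeq2 called 105, 186, 3, 1 and 208 genes for these comparisons in the same order, Klrk1 among them in BPI and in UT against IgG. Klrk1, Clec2d and Klrd1 were the 3 of 6 members whose BP libraries both lay above both IgG libraries, as did 14% of all genes. No member had both below, as 20.5% of all genes did. The BPI difference passed in edgeR without IgG replicate 1 (log2 5.18, adjusted p = 0.0325) and without BP replicate 2 (3.50, 0.0373), among 94 and 388 genes in all. The BP difference for Klrk1 turned to -0.57 when UT was pooled with IgG as control.

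Library set moved with this result. Within set A, Klrk1 was 2.66-fold higher in BP replicate 2 than in IgG replicate 1 (counting interval 1.92 to 3.78), 4.33-fold higher in BPI (3.17 to 6.08), and 1.63-fold higher in BPI than in BP replicate 2 (1.43 to 1.86). Within set B, CD40 was at 0.725 of IgG replicate 2 (0.372 to 1.45). With the term for set A against the other 4 libraries, added after these values were seen, Klrk1 differed from IgG by 2.24 in BP, 2.91 in BPI and 5.16 in UT (log2). edgeR called it in each, among 618, 533 and 897 genes in all. That fit has nearly as many coefficients as libraries, so these calls are not read as support from replicates.

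The clusters that make up the class also differed between libraries. The cluster led by Ms4a4c, Cxcl2 and Lyz2 held 49 to 589 cells in every library. Within it Klrk1 was at 479 CPM in UT, 67.1 and 12.8 in IgG, 211 and 190.3 in BP, 317 in BPI and 7.58 in CD40. The order of the groups was the same as in the whole class, and the BP libraries came close to each other. With only this cluster in the test, the difference from IgG was 2.42 ± 0.71 in BP (edgeR adjusted p = 0.431), 3.55 ± 0.80 in BPI (0.133) and 3.95 ± 0.81 in UT (0.0803). BP replicate 1 had most of its cells (1391) in another cluster, led by Ccl8, Ccl24 and Chil3, where Klrk1 was at 72.4 CPM and which had 5 cells in UT, 1 in CD40 and none in the other libraries. A further cluster, led by Plcb1, F13a1 and Ifitm6, had Klrk1 at 162 CPM in UT, 88.4 and 0 in IgG, 214 and 109 in BP, 87.9 in BPI and 19.4 in CD40, from 14 to 365 cells.

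**Figure D3:**
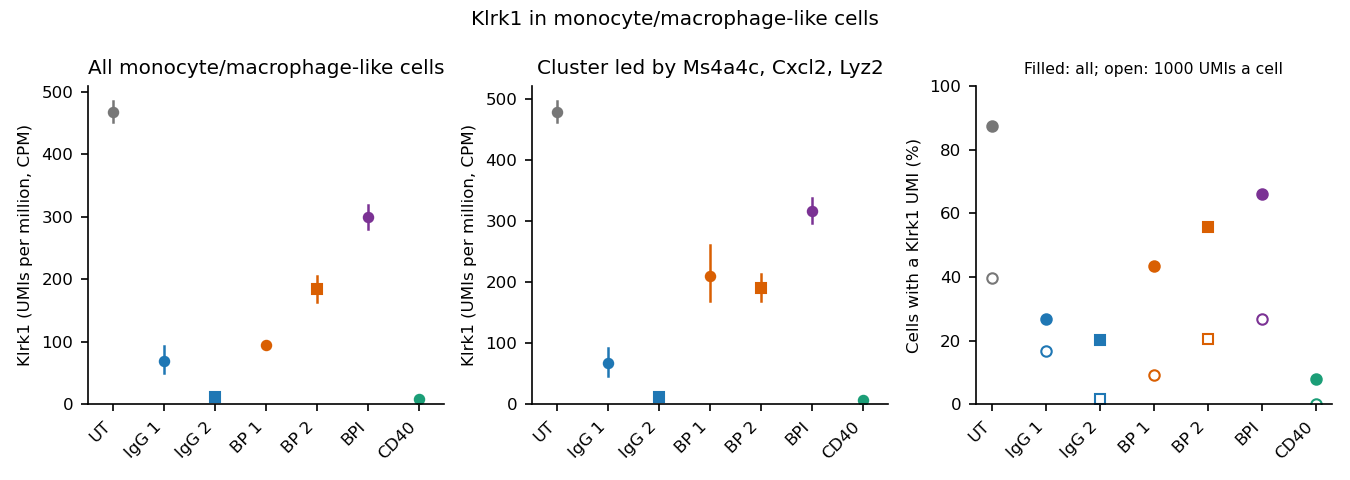
Klrk1 by library in monocyte/macrophage-like cells: CPM with exact 95% Poisson intervals in the whole class (left) and in the cluster led by Ms4a4c, Cxcl2 and Lyz2 (middle), and the percentage of cells with a Klrk1 UMI (right) before (filled) and after (open) thinning to 1000 UMIs per cell. UT and BPI are high and CD40 and IgG replicate 2 low in the left and middle panels.

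Microglia-like cells had far less Klrk1. It was at 120 CPM in UT (69 UMIs), 0 and 0.397 in IgG (0 and 3 UMIs), 44.2 and 3.96 in BP, 28.2 in BPI and 0.524 in CD40. Both BP libraries lay above both IgG libraries, as for 14.6% of all genes tested, and Klrk1 was the only 1 of 6 members to do so. None had both below, as 18.6% of all genes did. A single cluster led by Cd36, Cd83 and C1qc held 67 of the 69 UMIs in UT and all 161 in BP replicate 1. It had 8 of 12 monocyte/macrophage markers raised beside 10 of 10 microglia markers, so its name is uncertain. That cluster made up 98.6% of the microglia-like cells of BP replicate 1 and 62.0% of those of UT, but at most 1.26% of those of the other libraries, so the class compares different clusters there. The cluster led by Csmd3, P2ry12 and Gpr34 held 67.4% and 66.1% in IgG and 84.9% in BP replicate 2, where the Klrk1 level was 0 for each IgG replicate and 2.53 CPM for BP replicate 2. In edgeR 0 members and 0% of all genes were called in each of the 5 comparisons, with adjusted p = 1.0 for Klrk1 in BP and 0.549 in UT, and 561, 421, 39, 397 and 788 genes had an unadjusted p under 0.05. DESeq2 called 1 member, Klrk1, in BP, in BPI and in UT against IgG, among 39, 22 and 76 genes in all.

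Tumour-like cells held 96.5% of the Raet1d, 90.0% of the Raet1e, 95.2% of the Ulbp1 and 95.4% of the H60b UMIs. In both other clusterings tried (doublets kept, members among the variable genes) the marker rule left 96.6% and 96.5% of the 12788 tumour-like cells of set A unnamed, and their class was carried over by majority. Raet1e was at 63.0 CPM in UT, 68.4 and 44.3 in IgG, 28.6 and 76.6 in BP, 77.3 in BPI and 47.6 in CD40. Set A was high (68.4 to 77.3), set B lower (44.3 and 47.6) and BP replicate 1 lowest, so that libraries of 1 set resembled each other more than libraries of 1 group did.

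H60b had the widest range of the ligands. It was at 1.83 CPM in UT, 82.0 and 23.1 in IgG, 4.18 and 87.5 in BP, 91.9 in BPI and 29.0 in CD40. The 3 libraries of set A lay between 82.0 and 91.9, the 2 of set B at 23.1 and 29.0, and UT and BP replicate 1 under 5. Tumour-like cells also lay in different clusters by library. The cluster led by Pde10a, Pde3a and Tenm4 held 95.8% of them in BP replicate 1, and those led by Ctnnd2, Lsamp and Grip1 and by Csprs, A530040E14Rik and Cxcl10 held 58.7% and 34.0% in UT. The cluster led by Wfdc2, Lgals7 and Tex19.1 held 48.3% to 53.6% in set A. No tumour-like cluster had 20 or more cells in every library, so the differences in ligand level between libraries cannot be told apart from these clusters. In the Pde10a cluster, where UT had 185 cells, H60b was at 3.78 CPM in UT and 4.18 in BP replicate 1. The share of tumour-like cells with an H60b UMI ran from 3.45% in UT to 66.2% in IgG replicate 1.

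Ulbp1 was at 34.3 CPM in UT, 53.9 and 70.9 in IgG, 87.7 and 52.4 in BP, 43.2 in BPI and 71.8 in CD40. BP replicate 1 and set B were high, set A intermediate and UT lowest. Raet1d was low throughout, at 2.42 CPM in UT, 5.05 and 2.42 in IgG, 1.5 and 5.46 in BP, 4.89 in BPI and 2.01 in CD40, again with set A above the rest. The split of counts between Raet1d and Raet1e is uncertain, as given above.

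No ligand passed the test in tumour-like cells. BP differed from IgG by -0.07 ± 0.61 for Raet1e, 0.14 ± 0.27 for Ulbp1, -0.14 ± 1.43 for H60b and -0.07 ± 0.86 for Raet1d (log2, edgeR adjusted p = 1.0 each). The standard errors for H60b and Raet1d allow changes of several fold in either direction. UT differed from IgG by -0.90 ± 0.34 for Ulbp1 (edgeR adjusted p = 0.4002) and by -4.92 ± 2.33 for H60b (0.454). Over the 5 comparisons 0 of 10 members and 0% of 20208 or 19975 genes were called, with 410, 205 and 21 genes at an unadjusted p under 0.05 for BP, BPI and CD40 against IgG, 32 for BPI against BP and 2495 for UT against IgG. DESeq2 called 58, 6, 0, 0 and 834 genes in the same order, none of them a ligand among the members. None of the ligands had both BP libraries on 1 side of both IgG libraries, where 9.69% of all genes lay above and 14% below. The sign of the BP difference for Raet1e, Ulbp1 and H60b also depended on single libraries, with ranges of -1.12 to 0.53, -0.14 to 0.37 and -3.81 to 1.16 when each library in turn was left out.

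Within the sets Raet1e, Ulbp1 and H60b in the treated libraries were close to their IgG library. In set A the fold over IgG replicate 1 was 1.12 for Raet1e (counting interval 1.075 to 1.168), 0.971 for Ulbp1 (0.925 to 1.02) and 1.07 for H60b (1.03 to 1.11) in BP replicate 2. BPI gave 1.13 for Raet1e, 0.801 for Ulbp1 (0.758 to 0.845) and 1.12 for H60b. In set B, CD40 over IgG replicate 2 gave 1.07 for Raet1e, 1.01 for Ulbp1 (0.981 to 1.04) and 1.26 for H60b (1.19 to 1.32). The folds of these 3 ligands lay between 0.801 and 1.26, whereas the IgG libraries themselves stood at 82.0 and 23.1 CPM for H60b.

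**Figure D4:**
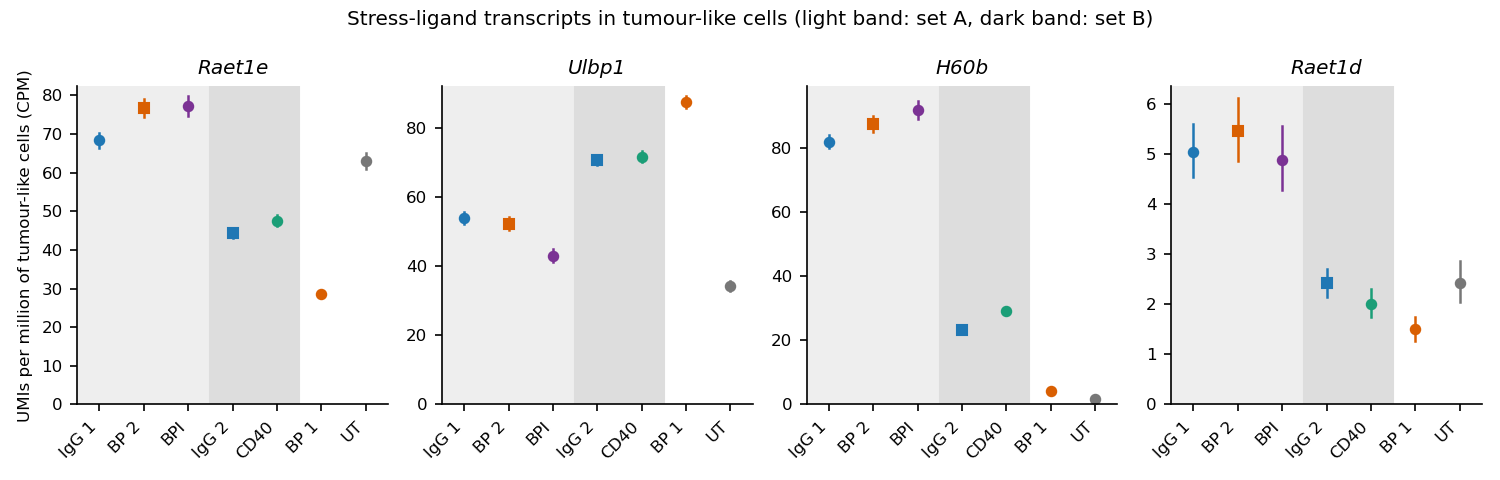
CPM (vertical axes) of Raet1e, Ulbp1, H60b and Raet1d in the tumour-like cells of each library (horizontal axes), ordered by library set (light band set A, dark band set B), with exact 95% Poisson intervals. Raet1e, H60b and Raet1d are highest in the 3 libraries of set A, and Ulbp1 in BP replicate 1.

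Most tumour-like cells had at least 1 of the 4 NKG2D ligand transcripts. The share with none was 23.2% in UT, 10.1% and 18.4% in IgG, 16.7% and 10.9% in BP, 14.8% in BPI and 20.8% in CD40. The 4 ligands together came to 101 CPM in UT, 209 and 141 in IgG, 122 and 222 in BP, 217 in BPI and 150.4 in CD40, so set A carried the most and UT the least. With cells thinned to 1000 UMIs, 8.41% in UT and 11.0% to 20.3% in the other libraries still had 1 or more.

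Ligands were combined within cells. Ulbp1 was found in 59.7% of tumour-like cells with a Raet1e UMI and in 48.4% of those without, and this order held in each of the 7 libraries. H60b was found in 45.1% of cells with Raet1e and in 29.9% of those without, also with the same order in every library. H60b was also more frequent with Ulbp1 than without it in every library, for example 70.7% against 61.6% in IgG replicate 1 and 31.9% against 23.2% in IgG replicate 2. Pooled over the libraries, which differ in both genes, that order was not seen (37.6% against 38.6%). Depth per cell also raises the share of cells with both transcripts, and its part was not tested.

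Tumour clusters within a library differed too. In IgG replicate 2 and CD40 the cluster led by Mdga2, Cda and Cdh20 had H60b at 17.2 and 19.2 CPM and Ulbp1 at 77 and 76.9, while the cluster led by Hapln2, Myzap and Pcdh11x had H60b at 31.1 and 36.1 and Ulbp1 at 63.7 and 66.8. H60b and Ulbp1 thus had opposite orders in these clusters in both libraries. The cluster led by the histone genes Hist1h1b, Hist1h1d and Hist1h2af, typical of dividing cells, had Ulbp1 at 82.2 and 85.5 CPM. Another histone-led tumour-like cluster (2039 cells), led by Hist1h1b, Hist1h2ab and Hist1h2bm, is not read here. In set A the clusters led by Mdga2 and by Hapln2 held only 12 to 76 cells per library. H60b there was at 14.5 to 49.1 CPM in the first and 70.3 to 75.9 in the second.

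Receptor transcripts in tumour-like cells were near 0. Klrk1 was highest in UT with 3.11 CPM and at most 0.904 elsewhere, and the other 4 receptors were at most 1.32 CPM in any library. Klrk1, Klrd1 and Klrc1 had both BP libraries above both IgG libraries, as did 9.69% of all genes. The T-cell markers summed to 8.58 CPM in UT, 0.930 and 0.946 in IgG, 11.2 and 1.91 in BP, 4.63 in BPI and 1.92 in CD40, so they moved in the same direction, and the upper estimate of free RNA reached 100% of the Klrk1 level in IgG replicate 1 and BPI. DESeq2 called Klrk1 in UT against IgG.

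Immune cells held fewer UMIs of the NKG2D ligands than tumour-like cells, though not a lower level of each. Raet1e in T-like cells was at 39.2 CPM in UT, 86.9 and 119 in IgG, 31.2 and 85.3 in BP, 102 in BPI and 88.2 in CD40. Both BP libraries lay below both IgG libraries, and the difference of -1.06 ± 0.54 did not pass (edgeR adjusted p = 0.716). Within set A, BP replicate 2 was 0.982-fold of IgG replicate 1 (counting interval 0.499 to 2.15) and BPI 1.18-fold (0.625 to 2.49), where IgG replicate 1 rests on 10 UMIs, and within set B CD40 was 0.740-fold of IgG replicate 2 (0.465 to 1.21). None of these 3 intervals excludes 1. The T-like level was above the tumour-like level of the same library in 6 of 7 libraries, UT being the exception, and most clearly in IgG replicate 2 (119 against 44.3 CPM). The levels were close in BP replicate 1 (31.2 against 28.6 CPM) and BP replicate 2 (85.3 against 76.6, from 60 T-like UMIs). In IgG replicate 1 they were 86.9 against 68.4 CPM, from 10 T-like UMIs. These differences between classes were not tested. Free RNA accounted for at most 6.21% of the T-like level in 6 libraries and for up to 38.5% in IgG replicate 1. Monocyte/macrophage-like cells had Raet1e at 13 to 52.3 CPM, Ulbp1 at 5.59 to 29.7, H60b at 2.59 to 13.4 and Raet1d at 0 to 1.21 CPM. In edgeR with all libraries, the low-count filter and no added term Raet1e, Ulbp1 and H60b were not called in these cells. Raet1d, with 5 UMIs there over all libraries, was removed by that filter and so was not tested.

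Clec2d was spread more widely than the NKG2D ligands. Pooled over the libraries, 26.6% of its UMIs were in monocyte/macrophage-like, 24.2% in tumour-like, 12.8% in unnamed, 12.0% in T-like, 7.80% in endothelial-like, 5.49% in microglia-like and 4.99% in NK-like cells. BP replicate 1 gave 10578 of the 18040 UMIs. Tumour-like cells held more than monocyte/macrophage-like cells in UT (42.3% against 30.1%), IgG replicate 2 (51.8% against 2.25%) and CD40 (34.96% against 5.47%). Endothelial-like cells held 26.5% in IgG replicate 2 and 29.6% in CD40. Monocyte/macrophage-like cells were the largest source in the other libraries (24.4% to 42.6%). The Clec2d level in tumour-like cells was nonetheless low, 12.7 CPM in UT, 0.522 and 5.87 in IgG, 18.8 and 0.809 in BP, 2.08 in BPI and 7.55 in CD40. Up to 94.7% of the value in IgG replicate 1 could be free RNA. Over that value BPI was 3.99-fold (counting interval 2.71 to 5.99) and BP replicate 2 1.55-fold (0.981 to 2.46), and CD40 was 1.29-fold over IgG replicate 2 (1.16 to 1.43). Endothelial-like cells had 86.4 CPM in UT, 149 and 158 in IgG, 338 and 479 in BP, 236 in BPI and 185 in CD40. Both BP libraries were above the rest there, but BP replicate 2 had only 8 endothelial-like cells and this class was too rare for a test.

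In NK-like cells Clec2d was at 102 CPM in UT, 283 and 234 in IgG, 205 and 246 in BP, 215 in BPI and 182 in CD40. T-like cells had 56.8 CPM in UT, 226 and 174 in IgG, 164 and 205 in BP, 178 in BPI and 187 in CD40. UT was the lowest library in both lymphocyte classes. The UT difference in T-like cells was -1.87 ± 0.53 (edgeR adjusted p = 0.0964) and passed in DESeq2 (adjusted p = 0.0482).

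In monocyte/macrophage-like cells Clec2d was at 78.1 CPM in UT, 99.5 and 23 in IgG, 185 and 141 in BP, 171 in BPI and 42.4 in CD40. Both BP libraries and BPI lay above both IgG libraries. Both BP libraries did so for 14% of all genes tested in this class. In BP replicate 1 76.9% of the class lay in the cluster led by Ccl8, Ccl24 and Chil3. The largest cluster of each IgG library was that led by Ms4a4c, Cxcl2 and Lyz2. The log2 difference was 1.52 ± 0.63 in BP (edgeR adjusted p = 0.619) and 2.01 ± 0.72 in BPI (0.378), and neither passed. Within set A the fold over IgG replicate 1 was 1.41 in BP replicate 2 (counting interval 1.06 to 1.91) and 1.72 in BPI (1.31 to 2.29), and within set B CD40 was 1.84-fold above IgG replicate 2 (1.23 to 2.83). The treated library was higher in each of these pairs of 1 library per arm. With the term for set A against the other libraries edgeR called Clec2d in BP (log2 1.81, adjusted p = 0.00322) and BPI (1.76, 0.0233), among 618 and 533 genes. As for Klrk1, that fit has nearly as many coefficients as libraries, so these calls are not read as support from replicates.

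**Figure D5:**
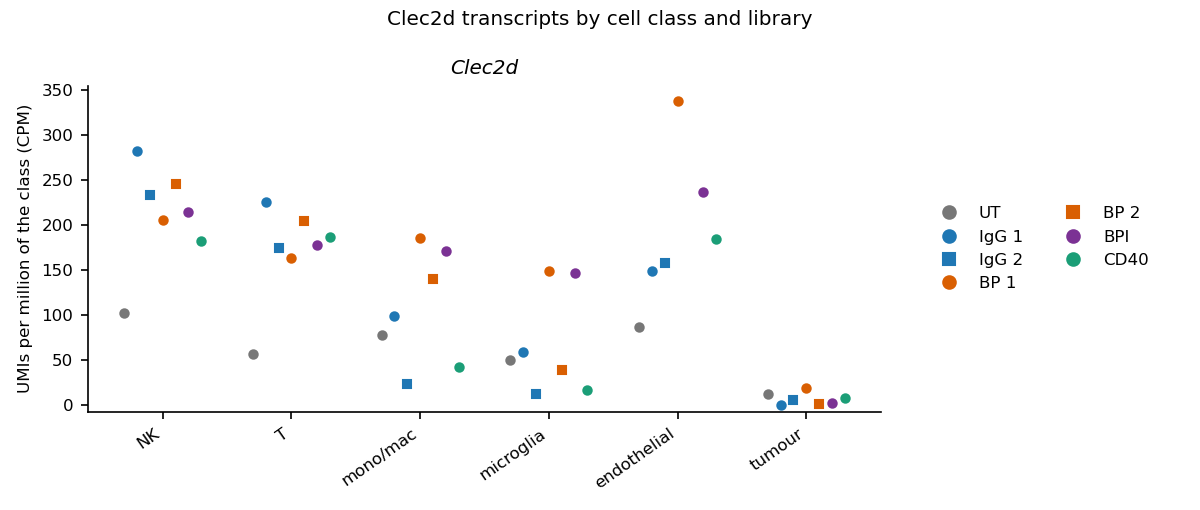
CPM (vertical axis) of Clec2d in 6 cell classes (horizontal axis); each point is 1 library with at least 10 cells of the class, coloured by group, circles and squares being replicates 1 and 2 where a group has 2. NK-like, T-like and endothelial-like cells lie high in most libraries, and tumour-like cells lie lowest.

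Other genes of the pathway were read from 4 lists: 26 receptors, 12 adaptors and signalling genes, 18 ligands, and 13 cytokines and cytokine receptors. Of the receptors, Klrb1b, Klra4 and Klre1 are also among the markers that named the NK-like class, so their levels there are a description. Klrb1b, which binds the product of Clec2d, was at 467 CPM in NK-like cells over all libraries, and the Ly49 family gene Klra4 and the lectin-like gene Klre1 were at 488 and 419. The adaptors Tyrobp, Fcer1g and Hcst were at 1498, 1006 and 358 CPM there. Among the ligands, H2-T23, which encodes the Qa-1 ligand of NKG2A, was at 69.7 CPM in tumour-like cells over all libraries (16.4 to 286), and Nectin2 and Pvr, ligands of Cd226, were at 19.5 and 17.6.

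Of the receptors list 1 of 16 genes tested in T-like cells rose in BPI and 1 of 16 in UT, both times Klrc2, which encodes the activating NKG2C and also pairs with CD94, beside 0.187% and 0.526% of all genes called upward. Klrc2 was at 125 CPM in UT, 17.4 and 4.58 in IgG, 77.1 and 98.1 in BP, 143 in BPI and 47.3 in CD40. Every other library lay above both IgG libraries, where Klrc2 had fewer than 3 UMIs each (3 UMIs would give 26.1 and 13.8 CPM). Its log2 difference from IgG was 3.99 ± 0.74 in BPI (edgeR adjusted p = 0.015) and 3.68 ± 0.75 in UT (0.0155). Of the cytokine list 1 of 11 tested rose in BPI, Il12rb2, a chain of the IL-12 receptor. It was at 141 CPM in UT, 60.8 and 45.8 in IgG, 193 and 210.5 in BP, 350.5 in BPI and 60.1 in CD40, a difference of 2.80 ± 0.51 in BPI (edgeR adjusted p = 0.0115). With free RNA subtracted edgeR called 0 genes of the class in each of the 5 comparisons, although the differences were nearly as large with larger standard errors, 3.89 ± 1.03 for Klrc2 and 2.68 ± 0.86 for Il12rb2 in BPI and 3.60 ± 1.05 for Klrc2 in UT. With UT pooled with IgG 0 genes were called in each of the 4 comparisons that remain, and the BPI differences were 1.33 ± 0.78 and 2.09 ± 0.55. With only the T-like cluster led by Gm2682, Cd3d and Trbc2 the BPI calls held (edgeR adjusted p = 0.019 for Klrc2 and 0.0149 for Il12rb2), and the UT call of Klrc2 ended (1.75 ± 1.08, 0.913). No adaptor and no ligand of the lists was called in T-like cells, and none of the 4 lists had a call in the other classes tested or in the other comparisons. The median log2 difference of the 16 receptors in T-like cells was 0.07 in BP, 0.66 in BPI, 0.77 in CD40 and 0.79 in UT against IgG, while the median over all genes lay within 0.04 of 0. The T-like class includes the sub-cluster led by Xcl1, Ncr1 and Cd7, whose name is uncertain. Of its 49 cells 49.0% were from CD40, and its part in these medians was not tested. Larger medians, with no gene called, were found in other classes. In monocyte/macrophage-like cells that of the 8 receptors tested was 1.16 in BP and 2.13 in BPI and that of the 11 cytokine genes tested 1.24 and 2.46, beside 0.03 and -0.02 over all genes. In tumour-like cells that of the 14 receptors tested was 1.93 in BP and 1.28 in BPI, and that of the 11 adaptors tested 1.57 in BP and 1.99 in UT, beside 0.00, -0.05 and -0.06 over all genes in BP, BPI and UT. These receptors were near 0 in tumour-like cells, with at most 2.40 CPM in any library (Fcgr3). The T-cell markers given above moved in the same direction there, and the part of leukocyte RNA was not tested.

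By the rule used for likeness (the highest Pearson correlation of log2(CPM + 5) over 60 sums per class and library, 10341 genes searched), the genes most like each member were as follows. The sums share libraries and depth, so the values are descriptions. Klrk1 was most like Ccl5 (r = 0.911) and Ifi208 (0.887), and Klrd1 most like Ctsw (0.936) and Fasl (0.933). Klrc1 was most like Klrc2 (0.988) and Sh2d1a (0.985). Ncr1 and Klrb1c were both most like Klra1 (0.988 and 0.959) and Klra7 (0.958 for each). Ulbp1 was most like the mitotic kinase gene Ttk (0.845) and the replication checkpoint gene Clspn (0.831). Clec2d was most like Sp100 (0.875) and Zc3hav1 (0.874), a pair of genes known to respond to interferon. For Raet1e the closest were the ribosomal genes Rps10 (0.767) and Rps13 (0.766), for H60b Mpzl2 (0.721) and Tex19.1 (0.710), and for Raet1d Gm38414 (0.709).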

How the data were processed

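The authors deposited UMI counts per gene and barcode for each library, with all barcodes, produced by Cell Ranger 4 per the file headers, while the submitters' processing notes name Cell Ranger 7.0.1 and mm10. From these counts, barcodes were kept that had 1000 or more UMIs, 500 or more genes and no more than 15% of UMIs from mitochondrial genes, and the cells with the highest doublet scores were removed at 0.8% per 1000 cells. Cells were clustered with scanpy 1.11.5 (2000 variable genes, 30 principal components, 15 neighbours, resolution 1), and clusters were named from marker lists. The test was run on sums of counts over the cells of a class in a library, with edgeR 4.0.16 in R 4.3.3 (TMM scaling, low-count filter, at least 20 cells in every library, Benjamini-Hochberg threshold 0.05). Free RNA was estimated from barcodes with 10 to 100 UMIs and its upper bound is given. The procedure was run on simulated data in which only genes above the median level were changed. No library set or cluster effect was put in, so that run does not cover low counts or confounded libraries.

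All 10 members were reported whatever their values. Of the pathway lists, genes past the test and up to 3 per list with the highest level were named. 1 gene that the likeness rule names is not reported here. The members and lists were chosen with earlier results of these data known. Alternatives were DESeq2 1.42.0, another scaling, no low-count filter, a replicate block, leaving out each library, UT pooled with IgG, free RNA subtracted, no doublet removal, and members among the variable genes. A library set term (set A against the other 4 libraries), a crossed block and changed membership of the T-like and monocyte/macrophage-like classes were added after the data were seen. Cell classes were rebuilt here, so a difference from the authors' own classes may come from the names. P-values measure only the spread between the pooled libraries.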

Additional observations from a re-analysis of the deposited data

How the results depend on the processing

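Counts of members called by edgeR were 0 except 2 in T-like cells for UT against IgG, and 218 of the alternatives' counts stayed within 1.5 times these, while 46 moved. DESeq2 called 1 member, Klrk1, in tumour-like cells for UT, in monocyte/macrophage-like cells for BPI and UT, and in microglia-like cells for BP, BPI and UT, each against IgG, among 834, 186 and 208, and 39, 22 and 76 genes in all. With the library set as a term (set A against the other 4 libraries) 1 member was called in T-like cells for BP (Klrc1) and for CD40 (Ncr1), among 125 and 33 genes. It gave 2 in monocyte/macrophage-like cells for BP and for BPI and 1 for UT, among 618, 533 and 897, and 1 for UT in tumour-like and in microglia-like cells, among 366 and 4. Without the low-count filter 1 was called in T-like cells for BP and 2 for BPI, among 99 and 78 genes, and 2, 2 and 1 in monocyte/macrophage-like and in microglia-like cells for BP, BPI and UT, among 422, 574 and 631 and among 309, 131 and 297. Without doublet removal 1 was called in T-like cells for BP and 2 for BPI, among 84 and 51. With the Foxp3 cluster added 1 was called in T-like cells for BPI, among 37. With free RNA subtracted 0 members and 0 genes were called in T-like cells for UT, and with only the cluster that had 20 or more cells in every library 0 members, among 17 genes. Leaving out each library in turn gave 0 to 2 members in T-like cells for BP and for BPI, 0 to 1 for CD40, 0 to 3 for BPI against BP and 0 to 4 for UT. It gave 0 to 1 in monocyte/macrophage-like cells for BPI and UT, and in microglia-like cells 0 to 2 for BP and 0 to 1 for BPI and UT. Each fit without a library leaves 1 library in the IgG or the BP group. Its count of members is therefore not read as support from replicates. Ranges of all genes called over all alternatives, these fits included, are given in the next paragraph. In T-like and microglia-like cells the upper ends of those ranges came from the fits without BP replicate 1 or BP replicate 2. The member counts of these fits thus stand beside many calls among all genes. No share of all genes is given for each comparison, so these counts are not read as a property of the members. The causes of the moved counts were not tested.

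With UT pooled with IgG as control, the BP difference turned to -0.57 for Klrk1 in monocyte/macrophage-like cells and to 0.42 for H60b in tumour-like cells. Leaving out each library in turn moved the BP difference in tumour-like cells over -1.12 to 0.53 for Raet1e, -0.14 to 0.37 for Ulbp1 and -3.81 to 1.16 for H60b. Over all alternatives the count of all genes called ranged from 0 to 429 in T-like cells (0 to 88 as reported), 0 to 897 in monocyte/macrophage-like (0 to 2), 0 to 661 in microglia-like (0) and 0 to 834 in tumour-like cells (0).

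Libraries with the same replicate number did not deviate together (r = -0.64 in tumour-like, -0.07 in T-like, -0.20 in monocyte/macrophage-like and 0.12 in microglia-like cells), so they share only a number. With the replicate block 0 members were called for BP against IgG, among 65 genes in T-like, 37 in monocyte/macrophage-like, 6 in microglia-like and 0 in tumour-like cells, and Klrk1 differed by 2.14 in monocyte/macrophage-like cells (edgeR adjusted p = 0.522). A crossed replicate block gave 2 members in T-like cells and 2 in monocyte/macrophage-like cells, among 128 and 417 genes. Without doublet removal 63 of 133 levels moved beyond their counting interval. NK-like cells in IgG replicate 2 (15 cells) limit every level and comparison of that class.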

Other observations

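Klrk1 was also read in rarer myeloid classes. Dendritic-like cells had 305 CPM in UT (28 cells), 130.5 in BP replicate 1 (59 cells) and 536 in BPI (13 cells). Plasmacytoid dendritic-like cells had 174 CPM in UT (36 cells), 84.5 and 81.8 in BP (204 and 18 cells) and 162 in BPI (34 cells), and Klrd1 there was at 70.4 CPM in UT, 77.6 and 30.7 in BP and 122 in BPI. Libraries with fewer than 10 cells of a class are left out. UT and BPI were above BP replicate 1 for Klrk1 in both classes.

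A cluster that stayed unnamed and was led by Tnfrsf4, Il2ra, Icos, Ctla4 and Foxp3, genes typical of regulatory T cells, had little of either receptor. Its 262 cells in BP replicate 1 had Klrk1 at 5.47 CPM and Klrd1 at 4.86, and its 38 cells in UT had 13.1 and 4.35 CPM. The same cells had Clec2d at 309 CPM in BP replicate 1 and 122 in UT. The 26 neutrophil-like cells of BP replicate 1 had Clec2d at 907 CPM, from 48 UMIs, of which free RNA was at most 3.56%. It was at 422 CPM in BP replicate 2 (10 cells, 6 UMIs) and 513 in BPI (14 cells, 11 UMIs).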
